A study of Mus musculus with 6 samples.

Results

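Oxidative phosphorylation genes encode the enzyme complexes of the inner mitochondrial membrane that pass electrons to oxygen and make ATP, and 89 of them could be read among 22180 genes with a probe set of their own. Members were chosen by gene symbol alone (symbols that begin with Nduf, Uqcr, Atp5 or Cox4 to Cox8, and Sdha, Sdhb, Sdhc and Sdhd). Each gene was read at the probe set listed for it alone with the highest mean over the 6 arrays. The 89 comprise 21 core subunits, 49 accessory subunits, 9 assembly factors, 8 isoforms known mainly from particular tissues, and 2 pseudogenes. By enzyme, 40 belong to complex I, 4 to complex II, 8 to complex III, 19 to complex IV and 18 to complex V. A further 9 matching symbols, among them Cox6c, Ndufb2, Ndufb4, Ndufs6 and Uqcr10, were listed only on probe sets shared with another gene and are not members.

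The RNA came from RAW 264.7 cells, an established mouse macrophage-like line. All samples were given a GapmeR at 50 nM for 48 h. A GapmeR is a short antisense strand with locked nucleic acid ends that leads RNase H to cut a matching RNA. In 3 samples (Control) the GapmeR was by its label a control, and in 3 samples (Mist-targeted) it was directed at Mist, a long noncoding RNA. The labels give all 3 of these samples the same GapmeR name, Mist-targeted, and name no other GapmeR against Mist. Loss of Mist and other actions of what was given under that name therefore cannot be told apart. As 0 probe sets are listed as Mist, the level of Mist was not analysed here. Whether the replicates were grown as separate cultures is not stated in the labels, and p-values therefore reflect only how far these samples differ, which may be technical. Of 11 macrophage markers 10 were measured, and each had a mean above the median of every array. One of them, Fcgr1, which encodes a high-affinity IgG receptor, read 9.07, 9.14 and 9.06 in Control and 10.19, 10.01 and 10.10 in Mist-targeted samples. It rose by 1.01 ± 0.086 (limma, adjusted p = 0.012), a call that was lost with the block (0.12), without moderation (0.09) and when any array but Mist-targeted replicate 2 was left out (0.059 to 0.09). Its part in the results on the members was not tested. Over the 10 measured macrophage markers, 5 differences lay above 0 and 5 below it, from -0.28 to 1.01 (log2, median -0.023). The groups did not overlap in 4 of these markers, of which 2 were higher and 2 lower in Mist-targeted samples. T cell (6 of 7), B cell (5 of 5) and fibroblast markers (5 of 6) mostly had means below the lowest array median, 4.47.

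In the respiratory chain, complex I takes electrons from NADH and complex II takes them from succinate; both pass them to ubiquinone. Complex III moves them on to cytochrome c, complex IV hands them to oxygen, and complex V, the ATP synthase, uses the resulting proton gradient. Macrophages are known to shift between oxidative phosphorylation and glycolysis as their activation state changes, and most subunits are encoded in the nucleus while a core of them is encoded in mitochondrial DNA.

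The oxidative phosphorylation genes as a set stayed close to their Control levels, and 1 member, Cox6a2, fell. Each difference is the Mist-targeted mean less the Control mean, in log2 units, given with the standard error of the limma fit (n = 3 per group), and a gene is called at a Benjamini-Hochberg adjusted p under 0.05 over all 41345 probe sets. Of the 89 members 0 rose and 1 fell, beside 0.415% of all genes called. The median difference of the members was 0.013, with the middle of the distribution between -0.068 and 0.08 (quartiles). Over all genes the median was 0.0069 and the quartiles were -0.084 and 0.094. At an unadjusted p under 0.05 in the same limma fit, 5 members were higher, beside 5.24% of all genes, and 3 were lower, beside 5.79%. Together they are 8.99% of the members, beside 11.0% of all genes. The 3 values of each group did not overlap in 17 members, or 19.1%, beside 20.0% of all genes. Against all genes these shares lie near or below the background, but many of those genes were dim. Among the 80 members with a mean above the array medians, the groups did not overlap in 21.2%. Among all 11628 genes above the medians this share was 29.2%. At an unadjusted p under 0.05 in limma, 5 of these 80 members were higher and 3 lower, beside 18.2% of those genes in either direction. Whether the members change less often than other genes at such levels was not tested.

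**Figure D1:**
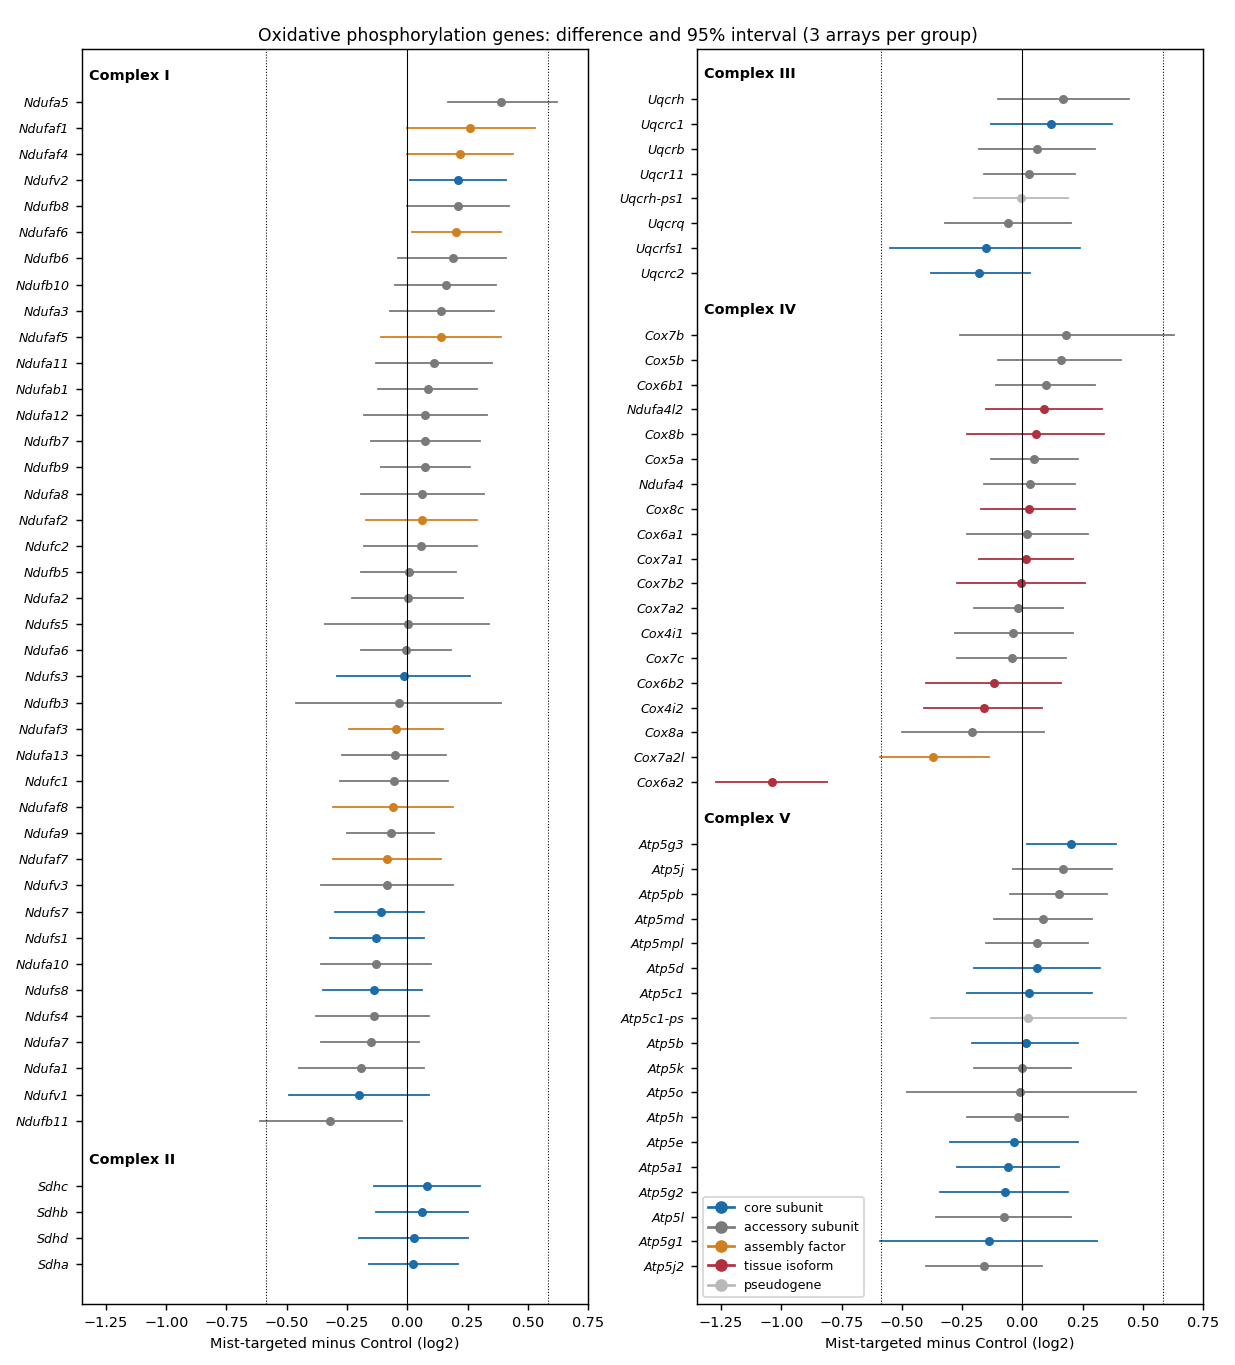
Difference between the Mist-targeted and Control groups (log2, horizontal axis) for each of the 89 oxidative phosphorylation genes, sorted within complexes I to V, with the point as the limma estimate, the line as its 95% interval (n = 3 arrays per group), the colour as the role and dotted lines at a 1.5-fold change. Cox6a2, at -1.04, stands alone at the left, while the other 88 differences lie between -0.37 and 0.39.

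The arrays limit what could be seen. The median standard error of a member was 0.098, and in 83 of 89 members the 95% interval lay inside a 1.5-fold change in either direction (93.3%, beside 93.2% of all genes). The 6 members whose interval reached past 1.5-fold were Cox6a2, Cox7a2l, Ndufa5, Ndufb11, Cox7b and Atp5g1. For 9 members, among them Cox7c, Ndufs5 and Atp5j2, the mean lay below the median of every array. Background was not measured for these 9, whose changes could be understated.

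Cox6a2 encodes subunit 6a of cytochrome c oxidase (complex IV) in the form known from heart and skeletal muscle. Its log2 values on the 3 Control arrays were 5.75, 5.74 and 5.62. On the 3 Mist-targeted arrays they were 4.52, 4.72 and 4.77, all below every Control array. The group means were 5.70 ± 0.075 and 4.67 ± 0.13 (SD, n = 3 each). It fell by 1.04 ± 0.098 on the log2 scale (2.05-fold lower; 95% interval 1.75-fold to 2.40-fold lower; limma, adjusted p = 0.017; probe set 17496857). The Mist-targeted mean lay only a little above the array medians (4.47 to 4.50). The size of the fall rested on no single array, with a range of -1.09 to -0.96 when each was left out in turn. The call did: the adjusted p was then 0.052 to 0.11, while all such fits called few genes (1 to 34 of 22180). With the replicate number as a block the adjusted p was 0.12 in limma, and an ordinary linear model without moderation gave 0.14; both fits called 0 of the 22180 genes. These values do not show whether fewer cells held the transcript or each cell held less of it.

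Cox6a1, which encodes the form of the same subunit found in most tissues, did not pass the test. Its values were 11.94, 12.07 and 12.10 in Control and 11.87, 12.11 and 12.19 with the Mist-targeted GapmeR, so the groups overlapped. The difference was 0.021 ± 0.11, with a 95% interval from -0.23 to 0.27.

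Cox6a2 lies beside a row of leukocyte integrin genes, and their values were looked up after its own had been seen. In the RefSeq gene table of GRCm38.p6 its nearest neighbours on 1 side are Itgad, Itgax and Itgam in that order. The Itgad entry overlaps the Cox6a2 entry, and whether the Cox6a2 probes reach into the shared stretch is not given in the sources used here. Itgad itself, which encodes integrin alpha D, read 3.95, 3.94 and 3.98 in Control and 4.16, 3.98 and 3.99 in Mist-targeted samples. All these values lie below the array medians, and the difference was 0.088 ± 0.087 (limma, adjusted p = 0.83). Before rounding the groups of Itgad did not overlap, with the Mist-targeted values higher. Itgax, which encodes integrin alpha X (CD11c), read 5.83, 5.49 and 5.74 in Control and 4.74, 4.86 and 4.94 in Mist-targeted samples, with no overlap. It fell by 0.84 ± 0.11 (limma, adjusted p = 0.045), a call that was lost when any 1 array was left out (adjusted p 0.11 to 0.16), with the block (0.14) and without moderation (0.18). Itgam, which encodes integrin alpha M (CD11b), differed by 0.26 ± 0.12 with overlapping groups. The other measured neighbours, Pycard, Trim72, Tgfb1i1 and Slc5a2, had differences of 0.12, 0.10, -0.032 and -0.10 and did not pass. The part of the shared position in the fall of Cox6a2 was not tested.

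**Figure D2:**
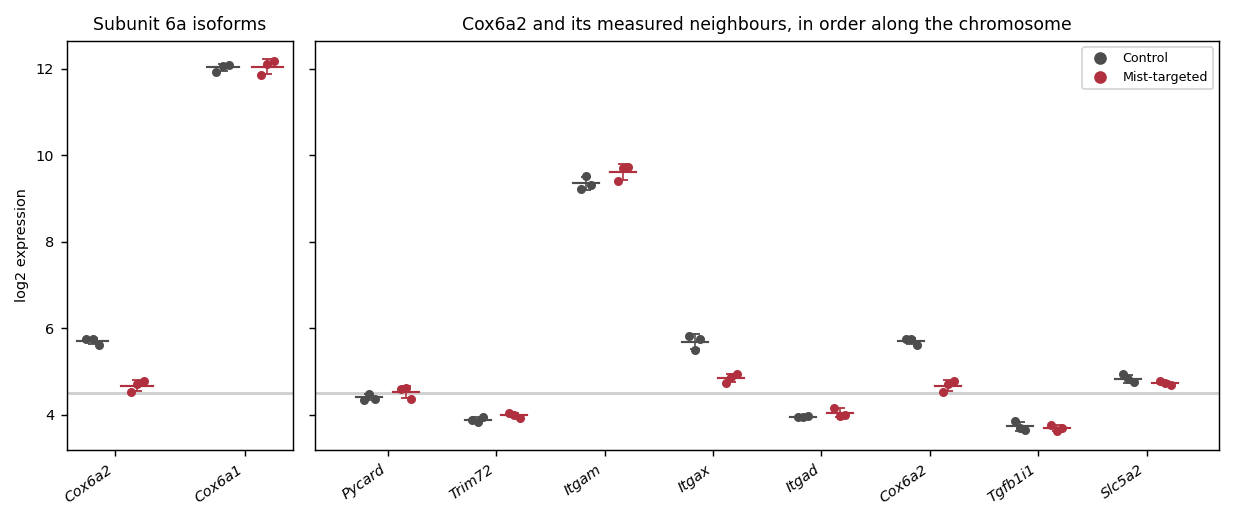
Log2 expression on each array (points; bars are the mean ± SD of 3 Control or 3 Mist-targeted arrays) for the subunit 6a genes at the left and for Cox6a2 with its measured protein-coding neighbours in chromosome order at the right; the grey band spans the array medians, and heights of different probe sets are not comparable. Cox6a2 and Itgax are lower in the Mist-targeted group without overlap. Itgad between them lies below the band in both groups, with Mist-targeted values higher by a very narrow gap.

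Of the complex I members 21 lay above 0 and 19 below it (median 0.002), and 0 were called. Of its 6 measured core subunits, most of which carry the flavin or iron-sulfur clusters, 5 had negative differences and 1 a positive one. The exception was Ndufv2, a subunit of the NADH-binding module. It read 9.09, 8.91 and 8.98 in Control and 9.23, 9.20 and 9.19 in Mist-targeted samples, which do not overlap, for a difference of 0.21 ± 0.085 (limma, adjusted p = 0.47). Its partner in that module, Ndufv1, which holds the flavin, had -0.20 ± 0.12, and Ndufs8 had -0.14 ± 0.089. Both had overlapping groups, whereas Ndufs1 and Ndufs7, which carry iron-sulfur clusters, were lower without overlap at -0.13 and -0.11 and did not pass. In 3 of the 6 core subunits (50.0%) the groups did not overlap, beside 20.0% of all genes and 29.2% of those above the array medians. Over all 22180 genes, 10601 lay below 0. Whether these 6 differ from other genes was not tested. Relative to the Control mean, the median core subunit stood at -0.13, -0.035 and -0.077 on the 3 Mist-targeted arrays.

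Among the 26 accessory subunits of complex I, Ndufa5 had the largest positive difference of all members. It read 6.52, 6.29 and 6.37 in Control and 6.82, 6.85 and 6.69 in Mist-targeted samples. Every Mist-targeted array was thus above every Control array. The difference of 0.39 ± 0.097 (1.31-fold) did not pass over all probe sets (limma, adjusted p = 0.20). It did when limma, with its variance prior, was refitted to only the probe sets listed with 1 gene (adjusted p = 0.047). That fit called 3.05% of all genes. Ndufb11, an X-linked subunit of the membrane arm, went the other way, with 5.40, 5.50 and 5.35 in Control and 5.06, 4.90 and 5.34 in Mist-targeted samples. Its groups came within a narrow gap of each other, and the difference was -0.32 ± 0.13 (limma, adjusted p = 0.47). Ndufb8 had 0.21 ± 0.09 with separated groups (limma, adjusted p = 0.52). The median of these 26 subunits was 0.0044.

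The 8 assembly factors of complex I, which help build the enzyme and are not part of it, had a median of 0.10, with 5 above and 3 below 0 and 0 called. Ndufaf6 read 6.59, 6.65 and 6.61 in Control and 6.86, 6.77 and 6.83 in Mist-targeted samples. Ndufaf1, a factor of the intermediate that builds the membrane arm, read 7.03, 6.73 and 6.89 in Control and 7.05, 7.29 and 7.10 in Mist-targeted samples. Ndufaf4 read 8.03, 7.95 and 8.12 against 8.25, 8.36 and 8.15. All 3 were separated between groups, Ndufaf1 and Ndufaf4 by narrow gaps, with differences of 0.20 ± 0.078, 0.26 ± 0.11 and 0.22 ± 0.094. None passed in limma (adjusted p = 0.45, 0.51 and 0.52). These 3 were named for the smallest p of the 8, which favours separated groups. In 3 of the 8 factors (37.5%) the groups did not overlap, beside 20.0% of all genes and 29.2% of those above the array medians.

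Complex II, succinate dehydrogenase, also works in the tricarboxylic acid cycle, and its 4 genes had the narrowest range. Sdha, the flavoprotein, read 9.76, 9.67 and 9.67 in Control and 9.73, 9.70 and 9.74 in Mist-targeted samples. The iron-sulfur subunit Sdhb had a difference of 0.059 ± 0.081 and the membrane anchor Sdhc 0.08 ± 0.094, and over the 4 genes differences ran from 0.02 to 0.08. The groups overlapped in all 4, and each 95% interval lay inside a 1.5-fold change.

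Complex III had 4 members above and 4 below 0 (median 0.012, 0 called). Uqcrc2, a core protein of the matrix side, read 9.71, 9.76 and 9.91 in Control and 9.59, 9.61 and 9.64 in Mist-targeted samples, which do not overlap. Its difference was -0.18 ± 0.088 (limma, adjusted p = 0.59), while that of its partner Uqcrc1 was 0.12 ± 0.11. The gene of the Rieske iron-sulfur protein, Uqcrfs1, had -0.15 ± 0.17 and varied among replicates, from 6.92 to 7.30 in Control and from 6.71 to 7.27 in Mist-targeted samples. The accessory subunits Uqcrh, Uqcrb and Uqcrq had 0.17 ± 0.11, 0.06 ± 0.10 and -0.06 ± 0.11.

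Complex IV had 19 members with a median of 0.015, of which Cox6a2 was called. Next in size was Cox7a2l, also called SCAF1, a relative of subunit 7a that joins complexes III and IV into supercomplexes. It read 8.26, 8.47 and 8.27 in Control and 7.88, 8.02 and 8.01 in Mist-targeted samples, so each Mist-targeted value lay below each Control value. The difference was -0.37 ± 0.096 (1.29-fold lower; limma, adjusted p = 0.22), and between -0.40 and -0.30 when each array was left out in turn. In the same family, Cox7a2, the form of most tissues, had -0.017 ± 0.078 and Cox7a1, the muscle form, had 0.015 ± 0.082. None of the 10 ubiquitous subunits was separated between groups. Examples are Cox8a at -0.21 ± 0.13, Cox5b at 0.16 ± 0.11 and Cox6b1 at 0.096 ± 0.09.

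The other tissue isoforms did not pass, and most were dim. Cox4i2, an isoform of subunit 4 known from lung and from cells at low oxygen, read 4.74, 5.03 and 4.76 in Control and 4.74, 4.67 and 4.62 in Mist-targeted samples. Its difference was -0.16 ± 0.11 and that of the common form Cox4i1 was -0.038 ± 0.10. Ndufa4l2, a target of hypoxia-inducible factor, read 3.74 ± 0.16 and 3.83 ± 0.065 (SD, n = 3 each), below all array medians. Its relative Ndufa4, which was first counted with complex I and is now placed in complex IV, had 0.031 ± 0.082. Cox6b2, Cox7b2, Cox8b and Cox8c, forms known from testis or muscle, each had a group mean below all array medians, with differences of -0.12, -0.0063, 0.056 and 0.028. Cox7b had 0.18 ± 0.19, with the widest spread of its family: 11.81, 11.31 and 11.28 in Control and 11.94, 11.37 and 11.64 in Mist-targeted samples.

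**Figure D3:**
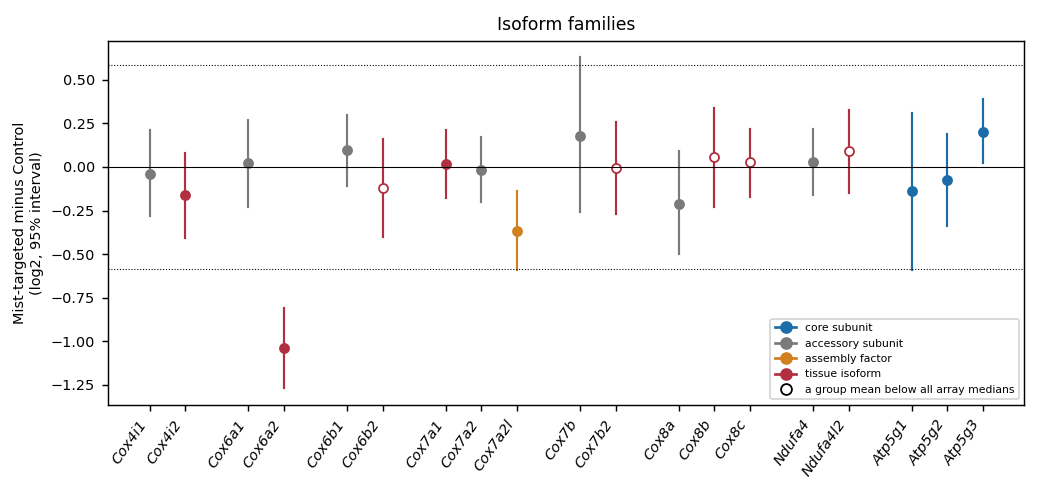
Difference between groups (log2, vertical axis; lines are 95% intervals, n = 3 arrays per group) for the isoform families of complexes IV and V, coloured by role; open points had a group mean below all array medians, and dotted lines mark a 1.5-fold change. Cox6a2 and Cox7a2l have intervals that do not reach 0 from below, at -1.04 and -0.37, and Atp5g3 has one that does not reach it from above, at 0.20.

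Complex V had 9 members on each side of 0, a median of 0.0064 and 0 called. Its c-ring, the part that turns with the protons, is built from a protein encoded by 3 genes. Atp5g3 read 8.22, 8.32 and 8.26 in Control and 8.49, 8.49 and 8.42 in Mist-targeted samples, with no overlap, for a difference of 0.20 ± 0.079 (limma, adjusted p = 0.46). Atp5g1 had -0.14 ± 0.19 and Atp5g2 had -0.074 ± 0.11, both with overlapping groups. The catalytic head genes Atp5a1 and Atp5b had -0.061 ± 0.089 and 0.013 ± 0.095. The stalk genes Atp5j (coupling factor 6) and Atp5pb (subunit b) had 0.17 ± 0.087 and 0.15 ± 0.085, each with separated groups. Atp5j2, subunit f, had -0.16 ± 0.10 at a mean below all array medians.

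Other probe sets gave no further call. The 9 further probe sets of members and the 10 shared with another gene all missed the threshold (limma, lowest adjusted p = 0.26). The lower-reading probe set of Cox7b had 0.37 ± 0.10, with 4.62, 4.60 and 4.84 in Control and 5.06, 4.95 and 5.16 in Mist-targeted samples. These do not overlap, unlike the values of its main probe set. The probe sets that Cox6c, a subunit of complex IV, shares with a predicted gene had 0.0012 and -0.064.

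By array, the median of the 89 members against the Control mean was -0.003, 0.0092 and -0.0078 on the Control arrays and -0.021, 0.0055 and 0.043 on the Mist-targeted arrays. Within each complex, Mist-targeted replicate 1 had a median below 0, from -0.052 in complex IV to -0.0063 in complex V. Mist-targeted replicate 3 was above 0 in each, up to 0.092 in complex II. The spread among arrays of 1 group was thus as wide as the difference between the groups.

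Among lists of genes that work with the members or beside them in metabolism, 0 genes passed. Of the subunits encoded in mitochondrial DNA, 10 were measured, with differences from -0.02 to 0.05, and 0 passed; ND1 had 0.052 ± 0.081 and ND4L 0.037 ± 0.082. These probe sets lay at 11.34 to 13.99, at the top of the measured range, where a change may be compressed. A list of 40 measured genes outside the symbol rule, assembly factors together with cytochrome c (Cycs) and cytochrome c1 (Cyc1, a subunit of complex III), had a median of 0.05 and 0 passed, with the complex IV factor Cox14 at -0.34 ± 0.093 and the complex I iron-sulfur factor Nubpl at -0.28 ± 0.10. Of 18 genes of mitochondrial biogenesis and mitochondrial DNA 0 passed (median 0.058); the helicase gene Twnk had -0.25 ± 0.082 and the coactivator gene Pprc1 0.24 ± 0.087. None of 71 mitochondrial ribosomal protein genes passed (median 0.049, 50 above 0), with Mrps7 at 0.36 ± 0.10 and Mrpl40 at 0.33 ± 0.11.

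None of 17 genes of the tricarboxylic acid cycle and of pyruvate entry into it passed (median -0.054, 13 below 0). The pyruvate dehydrogenase gene Pdhb had -0.21 ± 0.077 and the pyruvate carrier gene Mpc1 -0.17 ± 0.10. Both of these belong to pyruvate entry. Of 11 genes of coenzyme Q synthesis 0 passed (median -0.042), with Coq9 at -0.24 ± 0.081 and Coq10b at 0.28 ± 0.11. Of 12 genes linked to hypoxia, most of them mitochondrial, 0 passed as well, but 9 were below 0 and the median was -0.14. This list includes Hif1a, the gene of a hypoxia-inducible factor subunit, and the members Cox4i2 and Ndufa4l2. The protease gene Lonp1, known to degrade subunit 4 of complex IV at low oxygen, had -0.57 ± 0.12 (limma, adjusted p = 0.13) and Ghitm -0.43 ± 0.09 (adjusted p = 0.14). When limma was refitted to only those probe sets listed with 1 gene, both fell (adjusted p = 0.014 and 0.026). For comparison, the 15 measured glycolysis genes, counting the transporter genes Slc2a1 and Slc16a3, lay below 0 without exception (median -0.33). Of them 0 passed, but 60.0% were lower at an unadjusted p under 0.05 in limma, beside 5.79% of all genes. In 60.0% the groups did not overlap, beside 20.0% of all genes. All 15 had means above the array medians. Among all genes above the medians, 1121 of 11628 were lower at that limma p, and 29.2% did not overlap. Pfkp, a phosphofructokinase gene, had -0.66 ± 0.13 (limma, adjusted p = 0.13) and Eno2, an enolase gene, -1.48 ± 0.23 (adjusted p = 0.061). In the refit to probe sets listed with 1 gene, both of these fell too (limma, adjusted p = 0.011 and 0.0013). With a trended and robust prior Eno2 and Ghitm did (0.042 and 0.047). When any 1 array was left out, none of these 4 genes passed. The median of the 15 glycolysis genes stood at -0.65, -0.29 and -0.22 on the 3 Mist-targeted arrays. That of the oxidative phosphorylation genes was -0.021, 0.0055 and 0.043. The difference between these lists was not tested.

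**Figure D4:**
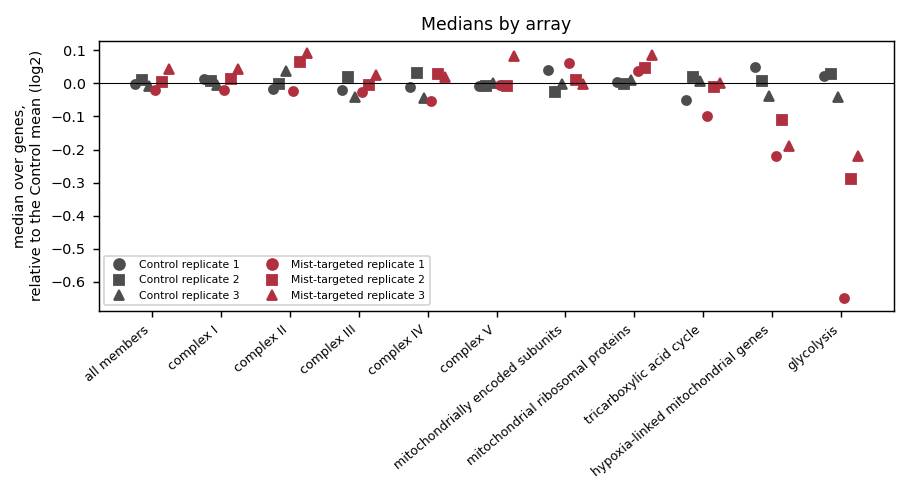
Median over the genes of each set on each array, relative to the mean of the 3 Control arrays (log2, vertical axis), with 1 point per array, colour for the group and shape for the replicate. The oxidative phosphorylation genes and their complexes lie between -0.052 and 0.092 on all arrays, while glycolysis lies between -0.65 and -0.22 on the Mist-targeted arrays.

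Some promoters of the members hold letters known from factors of this pathway, which the rule did not use, while most hold neither of the first pair of motifs described here. Nuclear genes of oxidative phosphorylation are known targets of NRF1 and of the ETS family factor GABPA, which bind near their start sites. RefSeq promoter windows of GRCm38.p6 (250 bases before to 50 after a start site) matched 72 of the 89 members, with 77 windows. The 10 letters searched for NRF1, which read the same on both strands and are the capitals of the first stretches printed here, stood in 9.09% of these windows, against 0.971% of all 32851 windows and 1.37% of the 20520 windows of genes read here. The ETS letters CCGGAAG on either strand stood in 24.7%, against 8.86% and 11.4%. The E-box CACGTG stood in 9.09%, against 7.15% of all windows and 8.1% of those of genes read here. For the hypoxia response core ACGTG, which every E-box contains, the share was 24.7%, against 19.6% and 21.4%. For the TATA letters TATAAA it was 11.7%, against 13.6% and 12.3%. A match is a run of letters and not a measured site.

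The stretches below are shown because their members belong to complexes I, IV and V and all have the same NRF1 letters, in capitals, 5′ to 3′ on the strand of the gene. They lie at chr15:102671070-102671099 (Atp5g2, minus strand), chr5:108434430-108434459 (Atp5k, minus), chr5:115349101-115349130 (Cox6a1, minus), chr17:56717692-56717721 (Ndufa11, plus) and chr4:24897960-24897989 (Ndufaf4, plus).
Atp5g2: ggctccggccGCGCATGCGCagagccttcc
Atp5k: tttcactgcgGCGCATGCGCctttctggct
Cox6a1: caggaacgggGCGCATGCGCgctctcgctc
Ndufa11: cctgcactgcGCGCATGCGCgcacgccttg
Ndufaf4: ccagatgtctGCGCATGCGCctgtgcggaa
Outside the capitals the letters differ, and the matches begin 42, 50, 162, 60 and 113 bases before the start site. The differences of these 5 genes between the groups were -0.074, -0.00061, 0.021, 0.11 and 0.22, none of them called.

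ETS letters are shown for 1 member of each complex, in capitals as CCGGAAG or, on the other strand, CTTCCGG. They lie at chr2:90904732-90904758 (Ndufs3, minus strand), chr9:50603879-50603905 (Sdhd, minus), chr10:80406871-80406897 (Uqcr11, minus), chr7:30626126-30626152 (Cox6b1, minus) and chr16:84835021-84835047 (Atp5j, minus).
Ndufs3: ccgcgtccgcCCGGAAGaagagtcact
Sdhd: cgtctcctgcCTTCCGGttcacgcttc
Uqcr11: tctctcctccCCGGAAGtagatgtcaa
Cox6b1: cctctcgcagCTTCCGGccagtcggaa
Atp5j: gctgagggacCCGGAAGcacttaccct
Their differences between the groups were -0.012, 0.026, 0.029, 0.096 and 0.17, and none of these 5 genes passed the test.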

How the data were processed

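Log2 expression values were used as deposited, with 1 column per array and 0 columns left unused. Per the submitters' processing notes, which give no version or role, RMA and Partek were used to make these log2 values. RMA corrects background and gives all arrays 1 distribution of signals, which would hide a shift common to most transcripts. For array settings and genome build, the sources used here give nothing. Arrays were grouped by the GapmeR in the labels. No 2 columns were identical (r = 0.988 to 0.991 within groups and 0.986 to 0.989 between groups). Gene names come from the platform annotation, which can be old, and the gene IDs of all 89 members matched RefSeq (GRCm38.p6).

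The 2 groups were compared by a moderated linear model (limma 3.58.1 under R 4.3.3, two-sided, prior degrees of freedom 3.48) over 41345 probe sets, and the fit was tested on simulated data. With 3 samples a group the smallest p of an exact permutation test is 0.1, and this model was used in its place. Lists were described without a list test. Summaries and plots used pandas 2.3.3 and matplotlib 3.10.9 (Python 3.11.15).

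The members, lists and tests were chosen with earlier results of these data known. Named members are those called, up to 3 per complex and role with the smallest p, and the isoform families; per related list, called genes or else the 2 with the smallest p. Ndufs1, Ndufs3, Ndufs5, Ndufs7, Ndufa11, Sdhd, Uqcr11, Cox7c, Atp5k, Atp5b and the neighbours of Cox6a2 were named for a sequence, a place or a role after values were seen. A YY1 motif was also searched in the promoters and is not reported here.

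Other settings tried were a replicate block, a trended and robust prior, no moderation, array weights, median centring, quantile normalization, a test against a 1.5-fold change, fits without the dimmest 40% of probe sets or with only those listed with 1 gene, gene means over probe sets, subunits only, and each array left out in turn.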

Additional observations from a re-analysis of the deposited data

How the results depend on the processing

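The number of members called was 1 in the main analysis, 0 with the replicate block, without moderation and against a 1.5-fold change, 2 among probe sets listed with 1 gene, and 0 when any array was left out. Members higher at an unadjusted p under 0.05 in limma numbered 1 with the replicate block, 0 against a 1.5-fold change and 3 among subunits only, and 1 to 4 with an array left out. Members lower numbered 5 without moderation, 1 against a 1.5-fold change and 2 to 4 with an array left out. The median of complex IV was -0.017 without the dimmest 40% of probe sets, a fit that holds 83 members. With an array left out the medians ranged from -0.013 to 0.034 in complex I, -0.023 to 0.026 in complex IV and -0.0082 to 0.046 in complex V. The other medians by complex moved by less than the spread between arrays under each alternative tried. The cause of these shifts was not tested.

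Alternatives were followed for the 42 named members. Among them Atp5g2 turned sign with the mean of its probe sets, at 0.004. With an array left out, ranges across 0 were -0.29 to 0.041 for Atp5g1, -0.11 to 0.026 for Cox4i1, -0.048 to 0.12 for Cox6a1, -0.0065 to 0.058 for Cox7a1, -0.044 to 0.00093 for Cox7a2, -0.061 to 0.09 for Cox7b2, -0.028 to 0.16 for Cox8b, -0.013 to 0.073 for Cox8c, -0.0044 to 0.062 for Ndufa4, -0.0089 to 0.12 for Uqcrb and -0.16 to 0.028 for Uqcrq.

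Whether samples with the same replicate number were paired could not be settled. Same-numbered arrays had deviations correlated at 0.201, 0.0957 and 0.0325, all positive. For replicates 1 and 2 these were the highest values of their arrays. Control replicate 3 correlated best with Mist-targeted replicate 2 (0.0604). With the replicate block limma called 0 of 22180 genes, where 92 were called without it. Over all genes, 241 were called with trend and robust, 140 without the dimmest 40% and 677 among listed probe sets. Precision is limited by 3 arrays per group.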
